A study of Homo sapiens with 12 samples.

Results

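The genes described here are 10 members of the TGF-beta and Hippo signalling systems, taken from the table by gene symbol: the ligand genes TGFB1, TGFB2 and INHBA, the TGF-beta-induced matrix gene TGFBI, the transcriptional coactivator genes YAP1 and WWTR1, and the YAP-TEAD target genes CCN1, CCN2, ANKRD1 and AMOTL2. All 10 were found among the 61806 genes of the table, each under 1 identifier. RNA was sequenced from TPC-1 and K1, established human papillary thyroid cancer cell lines, 24 h after transfection of an siRNA against TRIM35, which encodes a tripartite motif E3 ubiquitin ligase, or of a negative control siRNA. The 4 groups were TPC-1 with control siRNA, TPC-1 with TRIM35 siRNA, K1 with control siRNA and K1 with TRIM35 siRNA, with 3 libraries each and 12 in all. The labels give the control cells as wild type and the others as a TRIM35 knockdown, so that every library, controls included, came from transfected cells, and no untransfected cells were analysed here. Each line is a single line, and a difference between them holds for these lines only. The labels do not say whether replicates were separate cultures, so the p-values reflect the spread among these libraries and that spread may be technical.

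Library totals ran from 16705044 to 22928861 counts. The title of 1 TPC-1 control library names another line, while everything else that labels it says TPC-1, and it was kept in that group. Of the thyroid follicular markers, the transcription factor gene PAX8 was expressed in both lines (17.83 to 20.65 FPKM, the fragments of a gene scaled to its length and to library size, in the TPC-1 libraries and 95.52 to 128.78 FPKM in K1), whereas NKX2-1 had no count in any library and TSHR and SLC5A5 did not exceed 0.02 FPKM. FOXE1 (1.29 to 1.96 FPKM in TPC-1 and 11.80 to 15.09 in K1) and HHEX (3.83 to 7.02 and 2.37 to 3.98 FPKM) were also expressed in both. By edgeR, 4 of the 5 tested markers of this list were called higher and 1 lower in the K1 controls than in the TPC-1 controls. Over 22 alternatives the count called higher ran from 2 to 5 and the count called lower from 0 to 1. Of the tested markers, TG and SLC26A4 did not exceed 0.19 and 0.49 FPKM in any library. Of all tested genes 35.8% were called higher and 32.1% lower. TRIM35 measured 2.86, 2.91 and 3.06 FPKM in the TPC-1 controls against 2.34, 2.56 and 2.58 FPKM with siRNA, and 1.51, 1.85 and 1.47 FPKM in the K1 controls against 1.20, 1.49 and 1.53 FPKM with siRNA. The groups did not overlap in TPC-1 and overlapped in K1, and neither difference passed the test: the log2 fold change was -0.24 (SE 0.16) in TPC-1 and -0.19 (SE 0.17) in K1, both with an adjusted p of 1 by edgeR's quasi-likelihood test. An exact two-sided permutation test gave p = 0.1 in TPC-1, the smallest that 3 against 3 libraries allow, and p = 0.5 in K1. Within each line the leading component of variation did not part siRNA from control libraries. In K1 it set control replicate 1 and siRNA replicate 3 against control replicate 3 and siRNA replicate 1 and held 79.4% of the variance between the 6 libraries, and in TPC-1 it set both replicates 1 against both replicates 3 and held 62.5%.

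TGF-beta ligands are secreted in a latent form, are released by integrins and proteases, and bind a complex of type I and type II receptor kinases that phosphorylates SMAD2 and SMAD3. Activin A, the dimer of the protein that INHBA encodes, signals through activin receptors to the same SMADs. In the Hippo pathway, the kinases MST and LATS phosphorylate YAP and TAZ (the protein of WWTR1) and keep them out of the nucleus; unphosphorylated YAP and TAZ bind TEAD factors on DNA and activate genes such as CCN1, CCN2 and ANKRD1. The pathways meet at shared genes, since CCN2 and the ligand genes themselves can respond to both. In thyroid epithelium TGF-beta is known for restraining growth and, in carcinoma, for accompanying a mesenchymal phenotype. An mRNA level says nothing about where YAP or TAZ protein lies or whether a ligand is active.

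Because TEAD factors recognise the letters GGAATG, the sequence before the start site was taken from RefSeq (GRCh38.p14) for the members that have an entry, which were 9 of 10; CCN1 had none. Each entry runs from 250 bases before to 50 bases after a start, 11 entries in all, and both strands were searched (CATTCC on the other strand). CCN2 held 3 matches, ANKRD1 2, and TGFB2, YAP1 and one of the AMOTL2 starts 1 each, and the entries of TGFB1, INHBA, TGFBI and WWTR1 held none. The entry starts equal the annotated gene start in 6 of these 9 members. In chromosome position they differ from it by -33441 and -78689 bases in WWTR1, -2744 in INHBA and -62 and -1032 in AMOTL2. The counts hold for these entries only. Of 35116 promoters of this length, 14.0% held at least 1 match, 1.37% at least 2 and 0.128% at least 3. The stretches with matches are shown. Only CCN2 and ANKRD1 held several, and the target gene AMOTL2 held no more than TGFB2 and YAP1. All stretches are reference sequence, not read from these cells. They are written 5′ to 3′ on the gene's strand with the TEAD letters in capitals, the first pair being the 250 bases before the start of CCN2 (chr6:131951373-131951622, minus strand) and of ANKRD1 (chr10:90921088-90921337, minus strand), and the others the match with 20 bases on either side for TGFB2 (chr1:218345131-218345176, plus strand), YAP1 (chr11:102110265-102110310, plus strand) and AMOTL2 (chr3:134374491-134374536, minus strand).
CCN2: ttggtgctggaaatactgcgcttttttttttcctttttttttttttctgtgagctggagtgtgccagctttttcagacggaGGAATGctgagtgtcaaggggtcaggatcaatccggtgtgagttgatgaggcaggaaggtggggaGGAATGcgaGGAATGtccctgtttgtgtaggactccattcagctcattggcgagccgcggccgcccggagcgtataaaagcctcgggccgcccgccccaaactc
ANKRD1: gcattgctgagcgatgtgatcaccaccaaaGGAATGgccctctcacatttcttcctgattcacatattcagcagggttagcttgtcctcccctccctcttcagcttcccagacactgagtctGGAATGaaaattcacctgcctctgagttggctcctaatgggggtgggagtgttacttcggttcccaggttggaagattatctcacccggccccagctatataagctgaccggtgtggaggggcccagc
TGFB2: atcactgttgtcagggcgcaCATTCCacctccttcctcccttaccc
YAP1: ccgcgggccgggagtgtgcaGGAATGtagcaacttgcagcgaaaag
AMOTL2: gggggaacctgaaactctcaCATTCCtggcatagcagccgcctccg
In CCN2 the matches begin 169, 104 and 95 bases before the start, in ANKRD1 220 and 128 bases before it. A match is a description of these letters, not a site shown to be bound. The AP-1-like letters TGANTCA, with N any base, do not overlap the TEAD letters. They occurred in ANKRD1 alone of the members' entries, as TGATTCA 195 bases before the start, against 7.71% of all promoters. The SMAD letters CAGACA, also searched on both strands and free of overlap with the TEAD letters, occurred once each in TGFB2, INHBA, AMOTL2, WWTR1 and ANKRD1, against 16.9% of all promoters. In INHBA and WWTR1 the SMAD match lies after the start.

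The lines differed in which TGF-beta family ligand they expressed: TPC-1 carried more TGFB2, K1 far more INHBA, and TGFB1 was close in both. Levels per length placed CCN1 at the top of the members in TPC-1 and TGFBI at the top in K1, with CCN1 the only member among the 3 highest in both. In the TPC-1 controls the order by mean FPKM was CCN1, WWTR1, CCN2, YAP1, AMOTL2, TGFB2, TGFB1, TGFBI, INHBA and ANKRD1, and the single pair of neighbours whose libraries overlapped was AMOTL2 and TGFB2. In the K1 controls the order was TGFBI, INHBA, CCN1, YAP1, CCN2, AMOTL2, TGFB1, WWTR1, TGFB2 and ANKRD1, and no neighbours overlapped. The order was the same with TRIM35 siRNA in K1, and in TPC-1 it differed only in that TGFB2 and AMOTL2, which overlapped there too, changed places.

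**Figure D1:**
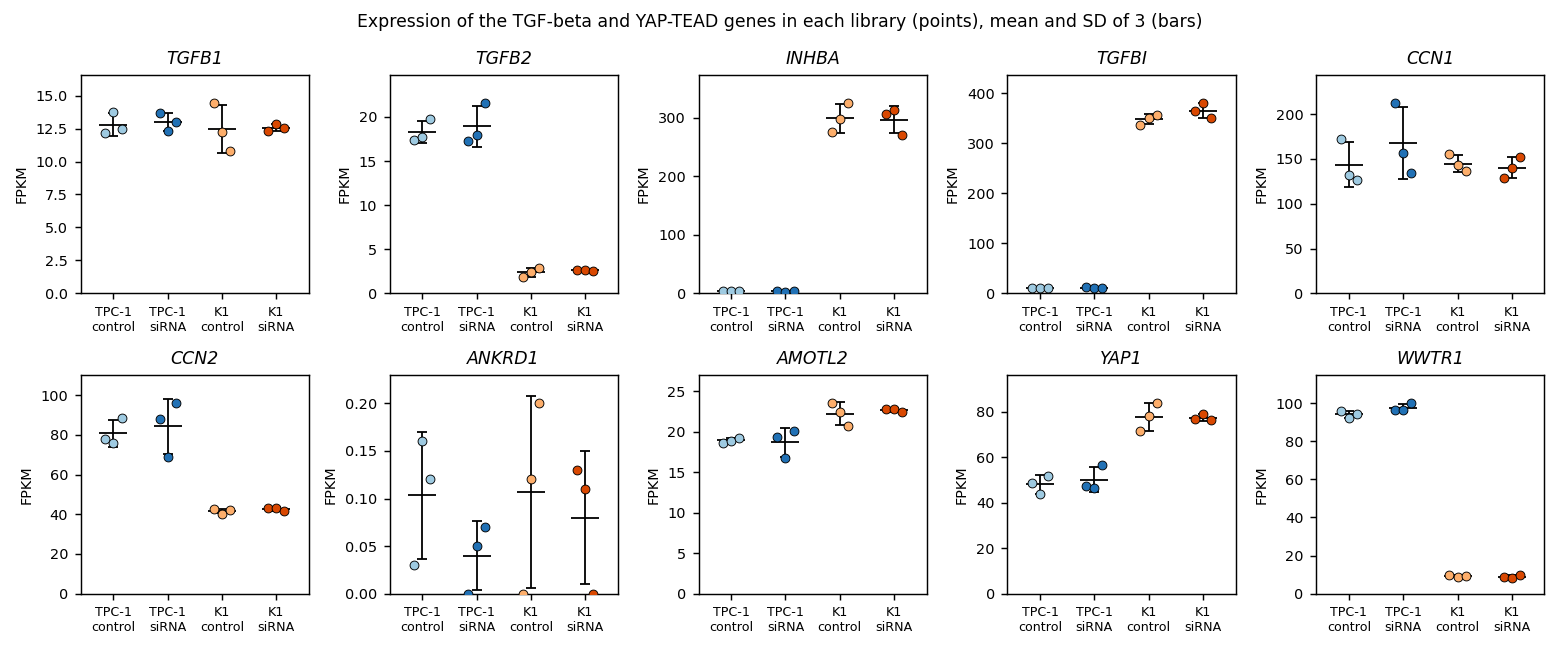
FPKM of each of the 10 genes (y axis, linear, own scale per panel) in the 3 libraries of each group (points), with the group mean and SD (bars). INHBA and TGFBI stand high in K1 and TGFB2, CCN2 and WWTR1 in TPC-1, whereas control and siRNA libraries of a line lie side by side; ANKRD1 does not exceed 0.20 FPKM.

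INHBA (ENSG00000122641; chromosome 7, 41667168 to 41705834, minus strand, hg38 as for all members) encodes the inhibin beta A subunit, whose dimer is activin A. It measured 3.52, 3.31 and 3.42 FPKM in the TPC-1 controls and 274.84, 296.94 and 324.77 FPKM in the K1 controls. Every K1 library lay above every TPC-1 library. The difference was 81.6-fold, a log2 fold change of 6.35 (SE 0.16, 95% interval 6.01 to 6.69, adjusted p = 3.78e-14, edgeR), and in the siRNA libraries it was 6.40 (adjusted p = 3.80e-14). These counts rest on depth: 1547 counts over the TPC-1 controls and 152442 over the K1 controls. The antisense gene INHBA-AS1, which lies across INHBA, measured 2.28 to 5.47 FPKM in K1 and at most 0.09 FPKM in TPC-1. Whether counting used strand is not given, and without it the reads of such a pair cannot be told apart.

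TGFB2 (ENSG00000092969; chromosome 1, 218345336 to 218444619, plus strand), a TGF-beta isoform, went the other way. It measured 17.43, 17.72 and 19.77 FPKM in the TPC-1 controls and 1.82, 2.47 and 2.86 FPKM in the K1 controls, with no overlap. It was lower in K1 by a log2 fold change of -3.05 (SE 0.15, adjusted p = 7.81e-11, edgeR), or 8.28-fold, and by -2.95 (adjusted p = 1.07e-10) in the siRNA libraries. The K1 controls were the group in which TGFB2 varied most, with a coefficient of variation of 22.0%, against 1.76% in the K1 siRNA libraries.

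TGFB1 (ENSG00000105329; chromosome 19, 41301587 to 41353922, minus strand), the isoform most often studied in carcinoma, measured 12.18, 13.78 and 12.45 FPKM in the TPC-1 controls and 14.43, 12.20 and 10.77 FPKM in the K1 controls. The K1 libraries spanned the TPC-1 range on both sides. The log2 fold change of K1 against TPC-1 was -0.13 (SE 0.13, 95% interval -0.41 to 0.16, adjusted p = 0.408, edgeR) in the control libraries and -0.13 (adjusted p = 0.387) in the siRNA libraries. With upper quartile scaling the control value was 0.012. Several genes overlap TGFB1, among them the opposite-strand HNRNPUL1 at 26.02 to 27.94 FPKM in K1 and 33.14 to 42.86 FPKM in TPC-1. Whether reads were shared with TGFB1 was not tested.

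The balance of the ligands can be read within each library. TGFB1 was 0.601 to 0.788 times TGFB2 in the 6 TPC-1 libraries and 3.77 to 7.93 times in the 6 K1 libraries, in FPKM. INHBA was 0.156 to 0.216 times TGFB2 in TPC-1 and 105 to 151 times in K1. The order of the 3 ligand genes was thus TGFB2, TGFB1, INHBA in every TPC-1 library and INHBA, TGFB1, TGFB2 in every K1 library.

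TGFBI (ENSG00000120708; chromosome 5, 136028988 to 136063818, plus strand) encodes a secreted matrix protein that binds integrins and takes its name from its induction by TGF-beta. It measured 11.13, 11.46 and 10.61 FPKM in the TPC-1 controls and 337.41, 351.64 and 357.68 FPKM in the K1 controls. The groups stood far apart and each was tight, with coefficients of variation of 3.87% and 2.98%. The log2 fold change was 4.88 (SE 0.14, 95% interval 4.58 to 5.18, adjusted p = 1.53e-13, edgeR), or 29.5-fold higher in K1, and 4.91 (adjusted p = 1.36e-13) in the siRNA libraries. TGFBI was thus 0.832 to 0.914 times TGFB1 in the TPC-1 libraries and 23.4 to 33.2 times in the K1 libraries, while TGFB1 itself did not pass the test between lines. No annotated gene in the table overlaps TGFBI.

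The coactivator genes YAP1 and WWTR1 differed between the lines in opposite directions, and more so for WWTR1. WWTR1 (ENSG00000018408; chromosome 3, 149517235 to 149736714, minus strand), which encodes TAZ, measured 95.69, 92.02 and 94.31 FPKM in the TPC-1 controls and 9.69, 8.62 and 9.05 FPKM in the K1 controls. No library of one line came near those of the other. It was 11-fold lower in K1, a log2 fold change of -3.46 (SE 0.14, 95% interval -3.75 to -3.17, adjusted p = 5.66e-12, edgeR), and -3.54 (adjusted p = 4.27e-12) in the siRNA libraries.

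YAP1 (ENSG00000137693; chromosome 11, 102110447 to 102233424, plus strand), the paralogous coactivator, measured 48.66, 43.69 and 51.82 FPKM in the TPC-1 controls and 71.37, 78.28 and 83.72 FPKM in the K1 controls. All K1 libraries were above all TPC-1 libraries, with siRNA as well. The log2 fold change was 0.60 (SE 0.12, 95% interval 0.33 to 0.86, adjusted p = 0.000538, edgeR), or 1.51-fold higher in K1, and 0.53 (adjusted p = 0.00132) in the siRNA libraries. The YAP1 to WWTR1 ratio was 0.475 to 0.567 in the TPC-1 libraries and 7.37 to 9.46 in the K1 libraries, and the sum of both was 135.71 to 156.48 FPKM in TPC-1 and 81.06 to 92.77 FPKM in K1. TPC-1 libraries thus held more WWTR1 than YAP1 mRNA and a higher sum of both, and K1 libraries held more YAP1 than WWTR1.

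**Figure D2:**
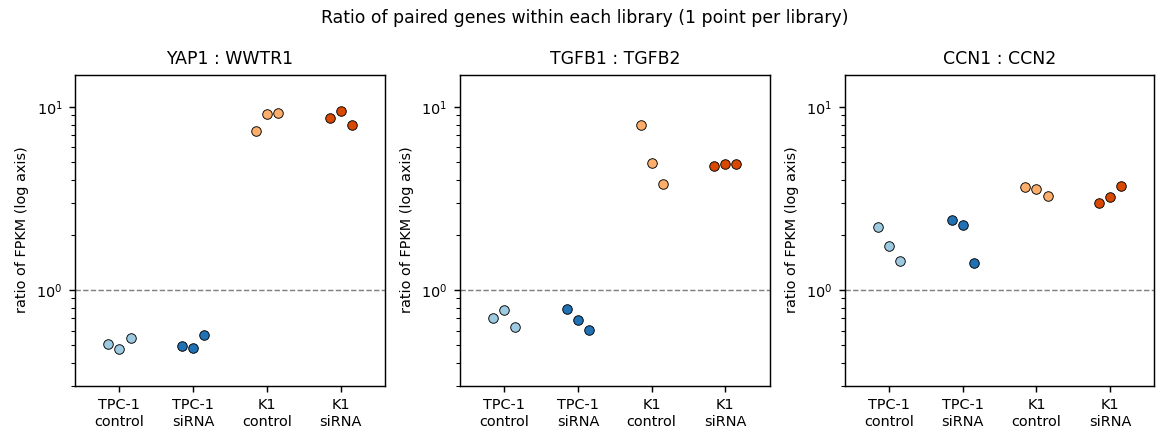
Ratio of FPKM of YAP1 to WWTR1, TGFB1 to TGFB2 and CCN1 to CCN2 (y axis, log scale) in each of the 12 libraries (1 point each), by group; the dashed line marks a ratio of 1. YAP1 to WWTR1 and TGFB1 to TGFB2 lie below 1 in every TPC-1 library and above 1 in every K1 library, and CCN1 to CCN2 is above 1 in all 12 libraries.

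Of the YAP-TEAD target genes, only CCN2 passed the test between lines. CCN2 (ENSG00000118523; chromosome 6, 131948176 to 131951372, minus strand), also called connective tissue growth factor, encodes a secreted matricellular protein. It measured 77.65, 75.99 and 88.32 FPKM in the TPC-1 controls and 42.42, 40.32 and 42.12 FPKM in the K1 controls, without overlap. It was 2.07-fold lower in K1, a log2 fold change of -1.05 (SE 0.13, adjusted p = 2.50e-06, edgeR), and -1.07 (adjusted p = 2.09e-06) in the siRNA libraries. Its promoter is the one with 3 TEAD matches printed above.

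CCN1 (ENSG00000142871; chromosome 1, 85580761 to 85584589, plus strand), also called CYR61 and the closest relative of CCN2 among the members, measured 172.27, 131.61 and 126.38 FPKM in the TPC-1 controls and 155.25, 142.78 and 136.54 FPKM in the K1 controls. The groups overlapped. The log2 fold change was -0.08 (SE 0.17, 95% interval -0.44 to 0.29, adjusted p = 0.706, edgeR), and its sign turned under library totals alone (0.015) and upper quartile scaling (0.060). In the siRNA libraries it was -0.34 (SE 0.17, adjusted p = 0.0922); there CCN1 passed the test as lower in K1 without TPC-1 siRNA replicate 3 (-0.49, adjusted p = 0.0172) or without K1 siRNA replicate 3 (-0.46, adjusted p = 0.0338). CCN1 was the one of the 9 tested members that varied most between TPC-1 replicates, at coefficients of variation of 17.5% in the controls and 23.9% with siRNA. The CCN1 to CCN2 ratio was 1.40 to 2.41 in the TPC-1 libraries and 2.98 to 3.68 in the K1 libraries.

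AMOTL2 (ENSG00000114019; chromosome 3, 134355347 to 134375479, minus strand), an angiomotin-family target gene whose protein binds YAP and restrains it, measured 18.64, 18.92 and 19.24 FPKM in the TPC-1 controls and 23.52, 22.47 and 20.68 FPKM in the K1 controls. The FPKM groups did not overlap. With TMM scaling the log2 fold change was 0.14 (SE 0.12, adjusted p = 0.302, edgeR) and did not pass the test, nor did the 0.19 (adjusted p = 0.161) in the siRNA libraries. It passed as higher in K1 with upper quartile scaling (0.28, adjusted p = 0.0193) and with limma on log2(FPKM + 0.1) (0.23, adjusted p = 0.0309). In the siRNA libraries it passed in 5 of 22 alternatives: library totals alone (0.28, adjusted p = 0.0223), upper quartile scaling (0.32, adjusted p = 0.00946) and limma in its 3 forms (0.27 to 0.28). Between the control libraries, upper quartile scaling raised the median log2 fold change of all tested genes by 0.143, about as much as it raised AMOTL2 there.

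ANKRD1 (ENSG00000148677; chromosome 10, 90912096 to 90921087, minus strand), which encodes an ankyrin repeat protein and is widely used as a YAP-TEAD reporter gene, was near the limit of detection in both lines. It had 1, 5 and 4 counts in the TPC-1 controls, 0, 2 and 3 with siRNA, 0, 5 and 6 in the K1 controls and 4, 4 and 0 with siRNA. With 5 to 11 counts per group a difference was not detectable at this depth, and ANKRD1 was removed by the filter on low counts. The promoter with 2 TEAD matches shown above thus belongs to a gene with at most 6 counts in a library. CCN1 and CCN2 had 8002 to 14562 and 1645 to 5026 counts per library.

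Counted together, 9 of the 10 members passed the filter on low counts and 6 of these 9 passed the test between the control lines, 3 higher in K1 (INHBA, TGFBI, YAP1) and 3 lower (TGFB2, WWTR1, CCN2). Of all tested genes 67.9% were called, 35.8% higher and 32.1% lower, so the members' share is near that of all genes. In the siRNA libraries the same 6 were called in the same directions, against 68.3% of all genes (35.9% higher, 32.4% lower). The median log2 fold change of the 9 was -0.08 and that of all tested genes 0.06. The 4 largest differences, in INHBA, TGFBI, WWTR1 and TGFB2, ran from 8.28-fold to 81.6-fold in the controls, and the other called members differed 2.07-fold or less. All 6 calls held in every one of the 22 alternatives run for each comparison.

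**Figure D3:**
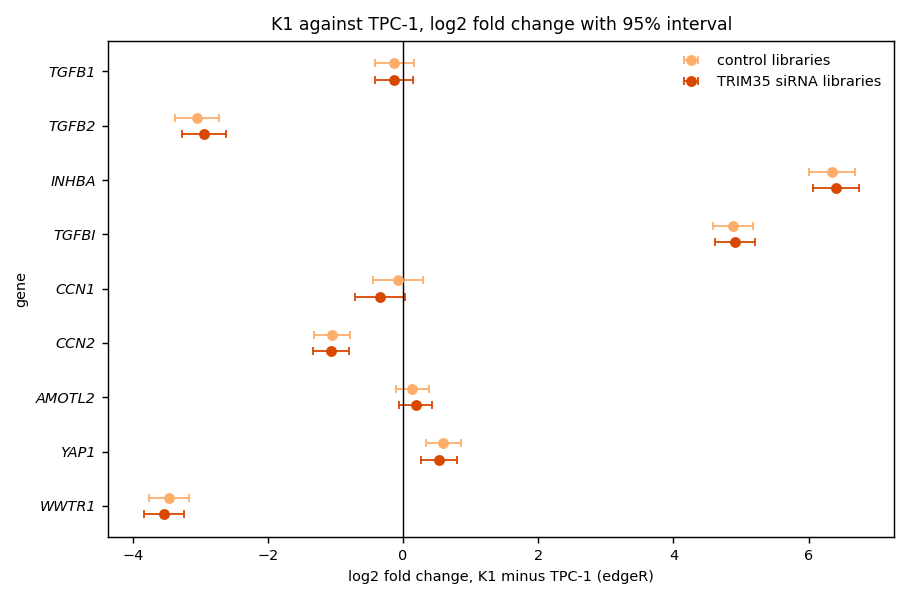
Log2 fold change of K1 against TPC-1 (x axis, edgeR) with its 95% interval for the 9 tested genes, in the control libraries and in the siRNA libraries. INHBA (6.35 in the controls) and TGFBI (4.88) lie far to the right, WWTR1 (-3.46) and TGFB2 (-3.05) to the left, and the intervals of TGFB1, CCN1 and AMOTL2 include 0 in both comparisons.

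The other genes of the pathways, taken from lists compiled for this purpose, also differed between the control lines in both directions. Each list count that follows stands against 35.8% called higher and 32.1% called lower in K1 among all tested genes. Among 8 tested ligands of the superfamily, 4 were higher and 3 lower in K1, with a list median log2 fold change of 0.43 against 0.06 for all tested genes. BMP2, a bone morphogenetic protein, measured 77.8 ± 2.41 FPKM in K1 and 0.277 ± 0.0451 FPKM in TPC-1 (SD, n = 3), a log2 fold change of 8.02 (SE 0.22, adjusted p = 6.82e-14, edgeR). GDF11 was higher in K1 by 1.18, and BMP4 (-2.18) and INHBB (-4.55), the inhibin beta B gene, were lower; INHBB did not reach 1 FPKM on average in any group. BMP2 and INHBA were thus the most abundant of these ligand genes in K1.

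Genes for latency, activation and antagonism of the ligands were called higher in K1 in 8 of 14 cases and lower in 3, with a list median of 1.31. GREM1, a secreted antagonist of bone morphogenetic proteins, measured 134 ± 7.26 FPKM in K1 and 0.123 ± 0.0153 FPKM in TPC-1 (log2 fold change 9.98, SE 0.21, adjusted p = 1.89e-14, edgeR). LTBP1, which tethers latent TGF-beta to the matrix, was higher in K1 by 3.07, and ITGB8, an integrin subunit that activates it, by 3.22. THBS1, encoding thrombospondin, a matrix protein that can release TGF-beta from latency, went the other way, at 130 ± 8.68 FPKM in TPC-1 and 0.733 ± 0.0493 FPKM in K1 (-7.57, SE 0.17, adjusted p = 1.94e-14).

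Of 12 receptor genes, 2 were higher and 7 lower in K1, with a list median of -0.50. The type II receptor TGFBR2 was lower by a log2 fold change of -0.73 (adjusted p = 0.000112, edgeR; 30.4 ± 2.81 FPKM in TPC-1 and 19.6 ± 1.08 in K1), while the type I receptor TGFBR1 was at 15.7 ± 1.35 and 20.1 ± 1.21 FPKM (0.26, adjusted p = 0.0707). The co-receptor gene ENG (-1.31) and the bone morphogenetic protein receptor genes BMPR1A (-1.23) and BMPR1B (-2.80) were lower, and the type I receptor gene ACVR1 (1.06) was higher. Among activin receptors, ACVR1B was lower (-0.63, adjusted p = 0.00224) and ACVR2B higher (1.26, adjusted p = 7.25e-06), and ACVR2A did not pass the test (0.28, adjusted p = 0.165). Both TGF-beta receptor genes were thus expressed in both lines, at means of 15.7 FPKM or more.

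The receptor-regulated SMAD2 and SMAD3 did not pass the test (0.20, adjusted p = 0.111, and 0.10, adjusted p = 0.435, edgeR), whereas the common partner SMAD4 was lower in K1 (-0.42, adjusted p = 0.00255). In the list of 16 SMADs and regulators, 4 were higher and 7 lower, with a list median of -0.26. PMEPA1, a TGF-beta-induced inhibitor of SMAD signalling, was higher in K1 (3.05, SE 0.14; 48.3 ± 2.29 against 5.47 ± 0.269 FPKM), as was the corepressor TGIF1 (1.9). The inhibitory SMAD7, which TGF-beta also induces, was lower in K1 (-1.74, SE 0.18), as was SMAD9 (-2.14). PMEPA1 and SMAD7, both TGF-beta-induced inhibitors, thus differed in opposite directions.

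Of 16 tested genes in a list compiled as TGF-beta-induced, 6 were higher and 6 lower in K1, with a list median of -0.13. The list holds ID1, ID2 and ID3 too, so it was not confined to genes that TGF-beta raises. The fibronectin gene FN1 was higher in K1 by a log2 fold change of 4.32 (SE 0.25, adjusted p = 4.56e-10, edgeR), and took between 4.28% and 6.5% of all counts in the K1 libraries and 0.171% to 0.282% in TPC-1. TAGLN, a smooth muscle actin-binding protein gene, was lower in K1 (-3.22), as was ID2, a gene that bone morphogenetic proteins induce (-2.57). TGFBI and FN1 were thus higher in K1, while TAGLN and ID2 were higher in TPC-1.

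Of 21 Hippo genes upstream of YAP and TAZ, 5 were higher and 9 lower in K1, with a list median of -0.23. Lower were the cadherin-like FAT4 (-3.38), the YAP-binding AMOT (-2.56) and the kinase gene STK3, which encodes MST2 (-1.37), and the kinase gene TAOK3 was higher (1.42). Of the TEAD factors, TEAD1 was lower in K1 (-0.51, adjusted p = 0.00998, edgeR; 22.9 ± 3.45 FPKM in TPC-1 and 17.3 ± 2.37 in K1), TEAD2 was lower (-1.50) and TEAD4 was lower (-1.70), and TEAD3 did not pass the test (0.24, adjusted p = 0.178). The cofactors VGLL3 (4.94, but only 0.58 FPKM in K1) and VGLL4 (0.60, adjusted p = 0.0471) were higher in K1; the count of called higher genes in this list fell from 2 to 1 in 9 of the 22 alternatives. The 6 tested TEAD and VGLL genes together had 2 called higher, 3 called lower and a median of -0.13. In the siRNA libraries 2 were called lower. Over the control and siRNA libraries TEAD1 overlapped between lines, at 18.18 to 27.66 FPKM in TPC-1 and 14.95 to 20.58 FPKM in K1.

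In a list of 17 further YAP and TAZ target genes, 4 were higher and 8 lower in K1, with a list median of -0.29 against 0.06 for all tested genes. F3, the tissue factor gene, was higher in K1 (2.86, SE 0.13; 32.1 ± 1.42 against 4.14 ± 0.0854 FPKM), as was RBMS3 (1.06), whereas CRIM1 (-2.08) and IGFBP3 (-2.98; 17.7 ± 0.857 against 131 ± 16.8 FPKM) were lower. The FPKM of these 17 genes summed to 494.07 to 538.46 in the TPC-1 controls and 299.29 to 316.76 in the K1 controls. Abundant genes weigh most in such a sum. The most abundant over the TPC-1 libraries were IGFBP3 (120.85 to 212.49 FPKM, and 16.85 to 21.32 in K1) and AXL (113.77 to 127.97 FPKM, and 48.54 to 57.95 in K1). Of the other CCN family genes, CCN3 (5.56; 10.7 ± 0.514 FPKM in K1 and 0.21 ± 0.04 in TPC-1), CCN4 (4.70) and CCN6 (2.48) were called higher in K1, CCN5 was not called (0.62, adjusted p = 0.406), and CCN4, CCN5 and CCN6 stayed below 1 FPKM on average in every group, and the median of these 4 genes was 3.59. LATS2 and PTPN14 stand in both the Hippo list and the target list.

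**Figure D4:**
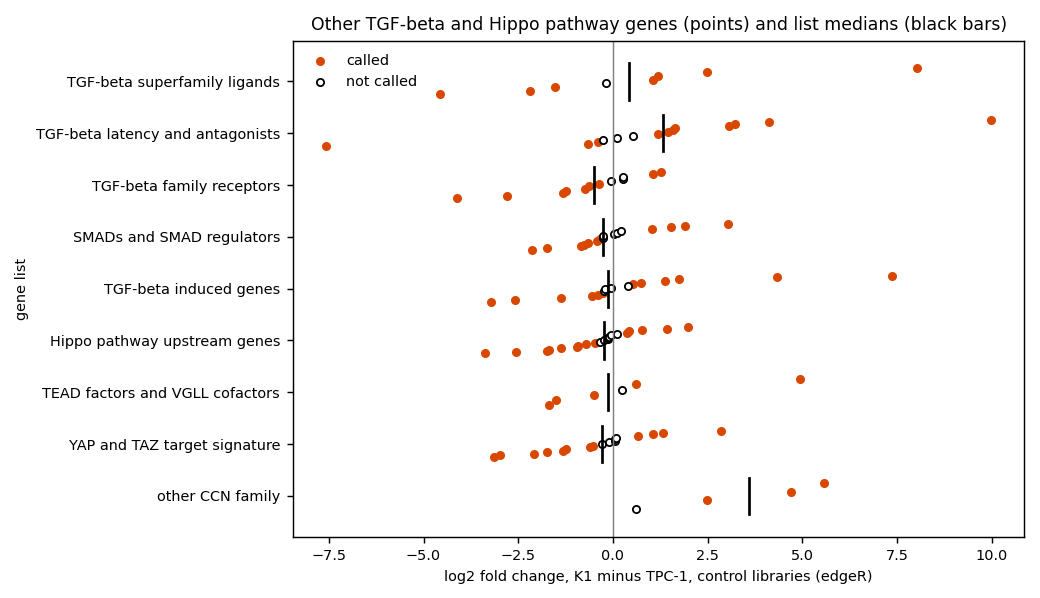
Log2 fold change of K1 against TPC-1 in the control libraries (x axis, edgeR) for each tested gene of 9 lists of other pathway genes; filled points passed the test, open points did not, and black bars mark list medians. Every list but the other CCN family genes has called genes on both sides of 0, with GREM1 (9.98) and BMP2 (8.02) farthest right and THBS1 (-7.57) farthest left.

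Markers of other cell types were low in both lines but higher in K1. The summed FPKM of 9 fibroblast markers was 1.83 to 2.55 in the TPC-1 libraries and 7.61 to 9.54 in the K1 libraries, of which THY1 alone gave 5.73 to 8.30 in K1, while COL3A1 did not exceed 0.04 and POSTN 0.08 FPKM. The sums for 7 endothelial markers were 0.22 to 0.41 FPKM in TPC-1 and 1.9 to 2.47 FPKM in K1. Of these, KDR alone gave 1.35 to 1.9 FPKM in K1, while CDH5 was at most 0.01. For 8 leukocyte markers the sums were 0.25 to 0.82 and 4.98 to 6.85 FPKM. CD14 alone gave 3.71 to 5.31 FPKM in K1, while CD3E was at 0 there. For 5 pericyte and smooth muscle markers the sums were 2.19 to 2.71 and 7.68 to 8.34 FPKM. ACTA2 alone gave 5.17 to 6.31 FPKM in K1. Of the tested markers, 4 of 6 fibroblast, 2 of 4 endothelial, 3 of 3 leukocyte and 3 of 5 pericyte and smooth muscle genes were called higher in K1 controls, and 1 fibroblast (PDGFRB) and 1 endothelial marker (TEK) were called lower, against 35.8% higher and 32.1% lower among all tested genes. With limma on log2(FPKM + 0.1), whose filter tests fewer of these low genes, 1 of each of these 4 lists was called higher. Their part in the line differences of INHBA, TGFBI and the other genes was not tested. Within a line the sums in control and siRNA libraries overlapped, or touched, in each of these 4 lists.

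With TRIM35 siRNA the 9 tested members had log2 fold changes from -0.05 to 0.23 in TPC-1 and from -0.04 to 0.15 in K1. No member passed the test in TPC-1 or in K1, and none passed the test of the difference between the lines' responses (edgeR, 0 of 9 each, against 0% of the 17447 tested genes in all 3 comparisons). At an unadjusted p under 0.05 there were 0 members, and 337, 136 and 301 genes of all tested; without TPC-1 control replicate 1, or without TPC-1 siRNA replicate 3, CCN1 was under 0.05 in TPC-1 and no member was called. DESeq2 called 0 of 10 members, and 1, 0 and 2 genes of the whole table, and limma called 0 members.

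**Figure D5:**
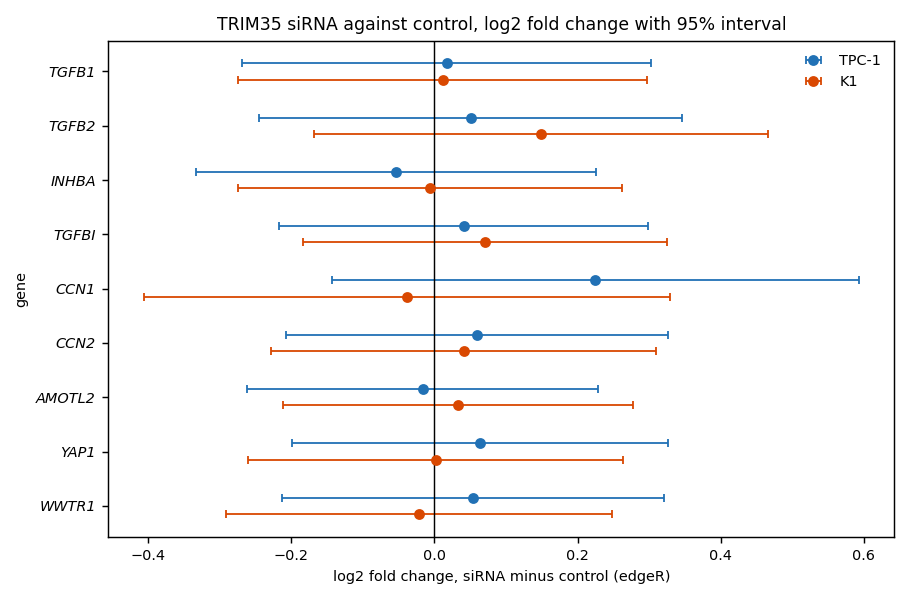
Log2 fold change of TRIM35 siRNA against control (x axis, edgeR) with its 95% interval for the 9 tested genes in TPC-1 and in K1. Every interval includes 0; the intervals reach from -0.33 to 0.59 in TPC-1 and from -0.41 to 0.47 in K1.

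None of the ligand genes passed the test, nor did TGFBI. In TPC-1, TGFB1 measured 13.64, 12.28 and 12.97 FPKM with siRNA (log2 fold change 0.02, SE 0.13, edgeR), TGFB2 17.32, 17.94 and 21.57 FPKM (0.05, SE 0.14) and INHBA 3.74, 2.80 and 3.36 FPKM (-0.05, SE 0.13). In K1, TGFB1 measured 12.30, 12.88 and 12.54 FPKM (0.01, SE 0.13), TGFB2 2.60, 2.66 and 2.57 FPKM (0.15, SE 0.15) and INHBA 306.72, 312.65 and 270.81 FPKM (-0.01, SE 0.13). All of these groups overlapped their controls. TGFBI measured 12.07, 10.97 and 11.13 FPKM in TPC-1 (0.04, SE 0.12) and 365.00, 380.82 and 350.26 FPKM in K1 (0.07, SE 0.12), again overlapping.

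YAP1 measured 47.59, 46.41 and 56.64 FPKM with siRNA in TPC-1 (log2 fold change 0.06, SE 0.12, edgeR) and 76.72, 79.14 and 76.44 FPKM in K1 (0.00, SE 0.12). WWTR1 measured 96.48, 96.21 and 99.84 FPKM in TPC-1 (0.05, SE 0.13) and 8.84, 8.37 and 9.59 FPKM in K1 (-0.02, SE 0.13). In TPC-1 the WWTR1 siRNA libraries all lay above the controls, the one member of 9 whose groups did not overlap there, against 4.6% of all tested genes; in K1 no member's groups were apart, against 4.74%. The WWTR1 difference of 0.05 was smaller than its standard error.

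The target genes did not pass the test either. CCN1 gave 212.27, 156.60 and 134.56 FPKM with siRNA in TPC-1, a log2 fold change of 0.23 (SE 0.17, 95% interval -0.14 to 0.59, unadjusted p = 0.212 in edgeR), and 129.12, 139.47 and 152.39 FPKM in K1 (-0.04, SE 0.17). In TPC-1, CCN1 and WWTR1 were higher with siRNA in all 3 same-numbered pairs, although the CCN1 groups overlapped. The share of all tested genes that rose in each pair was not computed. With the replicate number as a block within lines the CCN1 value was 0.21 (SE 0.14, adjusted p = 1, edgeR). It ran from 0.064 without TPC-1 siRNA replicate 1 to 0.40 without TPC-1 control replicate 1, and was 0.37 without TPC-1 siRNA replicate 3. CCN1 had the largest of the members' differences in response between the lines (-0.26, SE 0.24, unadjusted p = 0.299 in edgeR), from -0.44 without TPC-1 control replicate 1 to -0.10 without TPC-1 siRNA replicate 1. CCN2 gave 87.96, 68.88 and 95.81 FPKM in TPC-1 (0.06, SE 0.13) and 43.31, 43.31 and 41.46 FPKM in K1 (0.04, SE 0.13), and AMOTL2 19.33, 16.73 and 20.16 FPKM in TPC-1 (-0.02, SE 0.12) and 22.88, 22.80 and 22.43 FPKM in K1 (0.03, SE 0.12). The CCN2 and AMOTL2 groups overlapped their controls.

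The 95% intervals set what these libraries could show. Over the 9 members they spanned 79.4% to 151% of the control level in TPC-1 and 75.5% to 138% in K1, so a change of any member beyond those bounds lies outside its interval. They do not show that the genes were left as they were. The median log2 fold change of the members was 0.05 in TPC-1 and 0.01 in K1, against 0.00 and -0.004 for all tested genes. In each of the 9 pathway lists the siRNA comparisons gave 0 called genes as well, in TPC-1, in K1 and for the difference.

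Replicates of one group differed in ways that the members partly shared. In deviations of log2 CPM (counts scaled to library size) from the group means over the 12 libraries, CCN1 was highest in TPC-1 control replicate 1 (0.26) and TPC-1 siRNA replicate 1 (0.32), and lowest in TPC-1 siRNA replicate 3 (-0.29). CCN2 stood high in both TPC-1 replicates 3 (0.15 and 0.20), where CCN1 stood low. Over the 36 pairs of members, Pearson's r of these deviations had a median of 0.17 and ran from -0.62 (TGFB1 and TGFB2) to 0.80 (TGFB1 and AMOTL2). TGFB2 followed YAP1 (0.75) and CCN2 followed AMOTL2 (0.74). These coefficients describe 12 libraries that share depth and preparation, with 8 degrees of freedom left after the group means.

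Among 6427 genes with a mean of at least 5 FPKM, the gene whose deviations were most like those of CCN1 was JUND (0.99), an AP-1 subunit gene, and that for CCN2 was PPP1R3B (0.99). For TGFB2 it was MAP4K5 (0.96), for YAP1 PAWR (0.96), for WWTR1 USP10 (0.96), for INHBA DVL3 (0.97), for AMOTL2 TMEM127 (0.96), for TGFB1 PRKCSH (0.95) and for TGFBI ILKAP (0.91). Each is the highest of the coefficients with all these genes over the same 12 libraries and is given as a description.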

How the data were processed

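RNA-seq libraries of 2 thyroid cancer lines were compared. Trimming with cutadapt 1.9.1 and the build hg38 are recorded per the submitters' processing notes, which name no aligner or counter; strandedness is not stated there either. The authors deposited a table of read counts and of FPKM for every gene. Within rounding, the deposited FPKM equal the counts divided by exonic length and by each library's summed counts, so they carry no further scaling.

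Counts were tested with edgeR 4.0.16 (R 4.3.3; filterByExpr, TMM, glmQLFit and glmQLFTest, 1 mean per group over all 12 libraries, 8 residual degrees of freedom); 17447 genes were tested and 44359 removed. Called means a Benjamini-Hochberg adjusted p under 0.05 over all tested genes, and a standard error is the absolute log2 fold change over the square root of F. The test was checked on simulated counts drawn independently for each library. These lacked the variation that libraries share here, so the check does not cover it. Alternatives were DESeq2 1.42.0, limma 3.58.1 on log2(FPKM + 0.1) or log2(FPKM + 1), other scalings, no filter, replicate blocks, 2-group fits and leaving out each replicate. Replicate numbers come from the labels. In TPC-1 same-numbered libraries deviated together (r of 0.71, 0.26 and 0.76 over 6427 genes), so there the numbers meet the criterion for pairs; the values given are from the fit without a block, and the blocked fit is an alternative.

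The members, taken by symbol, and the pathway lists were proposed with earlier results of these data known. In each list up to 4 genes with the smallest adjusted p between control lines are named, plus receptors, SMADs and TEADs by role. For each member the tested gene with the most similar deviations is named, and so are genes that overlap it. Marker genes are named as examples within their lists, and AXL for its part in a summed level. Some genes that these rules or lists take are counted in their lists but not reported here.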

Additional observations from a re-analysis of the deposited data

How the results depend on the processing

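The number of members called was 6 or 7 between the lines and 0 for each siRNA comparison and for their difference in all alternatives run; the added call was AMOTL2 or CCN1, as given with those genes. With a replicate block, shared by the 4 groups or within each line, 0 members were called after TRIM35 siRNA in either line or for the difference. The shared block was also fitted to the line comparisons and called 6 members in each, and neither block changed another call of a member; in K1 the numbers did not pair the libraries (r of -0.77, 0.03 and -0.78). Over all genes, where edgeR called 0 after siRNA in TPC-1, in K1 and for the difference, it called 2, 2 and 4 without the filter on low counts, and limma on unfiltered log2(FPKM + 0.1) called 4, 32 and 11. The difference also had 1 call without TPC-1 siRNA replicate 3 or without K1 control replicate 3.

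Sign changes concerned log2 fold changes near 0 that were not called, and the cause was not tested. For siRNA against control these were AMOTL2 in TPC-1 with upper quartile factors (0.0043), INHBA in K1 with RLE (0.0050), upper quartile (0.0025) and DESeq2 (0.0037), and YAP1 in K1 with library totals (-0.0065), no filter (-0.0086), and limma with a pseudocount of 0.1 (-0.0037), of 1 (-0.0037) and unfiltered (-0.0037). For the difference between lines TGFB1 gave 0.0021 with RLE, 0.0036 with limma at 0.1, filtered or not, 0.0028 at 1, 0.00065 with a replicate block shared by the groups and 0.0060 with a replicate block within lines. Between the control lines TGFB1 gave 0.012 with upper quartile factors, and CCN1 0.015 with library totals, 0.060 with upper quartile factors and 0.026 with limma under each setting.

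Leaving out 1 replicate at a time also turned the sign of some of these values without making a call. The ranges after siRNA in TPC-1 were TGFB2 -0.042 to 0.147, INHBA -0.113 to 0.046, CCN2 -0.036 to 0.181, AMOTL2 -0.063 to 0.053 and YAP1 -0.021 to 0.143. The ranges after siRNA in K1 were TGFB1 -0.107 to 0.167, INHBA -0.031 to 0.028, CCN1 -0.145 to 0.0501, AMOTL2 -0.042 to 0.111, YAP1 -0.028 to 0.0395 and WWTR1 -0.119 to 0.059. The ranges for the difference of the responses were TGFB1 -0.124 to 0.149, TGFB2 -0.038 to 0.217, INHBA -0.052 to 0.107, CCN2 -0.141 to 0.079, AMOTL2 -0.025 to 0.126, YAP1 -0.141 to 0.024 and WWTR1 -0.188 to 0.0049. The range between the control lines was CCN1 -0.165 to 0.076.

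Fewer genes are tested by limma with its FPKM filter. Of the list counts between control lines that moved by over 1.5 times, it gave 1 ligand lower in K1 and not 3. It also gave 1 other CCN gene higher and not 3, and 2 thyroid follicular markers higher and not 4. It called 1 marker higher for fibroblasts (not 4), leukocytes (not 3), pericytes and smooth muscle (not 3) and endothelium (not 2). Depth limits ANKRD1, with at most 6 counts in a library, and INHBB, VGLL3 and CCN4 to CCN6, whose fold changes rest on few counts in one line.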
